A study of Homo sapiens with 4 samples.

Results

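Messenger RNAs of 10 amino acid transporters were followed in the culture medium of HEK293T cells, a human embryonic kidney cell line. The 10 genes were fixed by name (SLC7A5, SLC3A2, SLC7A1, SLC7A11, SLC7A6, SLC1A5, SLC1A4, SLC38A1, SLC38A2 and SLC6A9), and all 10 were found among the 61543 genes of the count table. In the EPN24-Cas13d group (2 libraries) the cells released nanocages, secreted protein shells made by EPN24, whose EPN24 subunit was joined to Cas13d, the CRISPR effector that finds RNA by a guide. In the EPN24 group (2 libraries) the shells carried no Cas13d. Both groups were grown in DMEM with serum and antibiotics, their medium was cleared by centrifugation and filtration, and ERCC synthetic RNA was added to equal volumes before total RNA was extracted. The labels name no guide RNA, no delivery method and no separate cultures for the replicates, so p-values here rest on spread between libraries that may be technical. The design text states the purpose as mapping the RNAs that Cas13d binds in cells, by reading those that leave in the shells. RNA inside shells was not separated from other RNA in the medium, and more shells and more RNA per shell cannot be told apart.

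Amino acid transporters of the solute carrier (SLC) families carry amino acids across the plasma membrane, and dividing cells depend on them for protein synthesis and for signalling through the growth kinase complex mTORC1. Several work as pairs: SLC3A2 is a single-pass heavy chain that brings light chains such as SLC7A5, SLC7A6 and SLC7A11 to the cell surface. Many of these genes are known targets of ATF4, the transcription factor of the amino acid response, which binds a composite C/EBP-ATF element in their regulatory DNA.

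Gene counts summed to 5097332 and 4863449 in EPN24-Cas13d and to 1830860 and 1903492 in EPN24. Levels are given as CPM, counts relative to the library size after TMM scaling, which sets each message against a weighted, trimmed mean over other genes. On that scale the median log2 fold change of EPN24-Cas13d over EPN24 was -0.96 over all 20476 tested genes. A level value on it is therefore not level with the middle of all tested genes. A count of 3, taken as the floor, corresponded to 0.721 and 0.755 CPM in EPN24-Cas13d and to 1.34 and 1.42 CPM in EPN24. Floors and intervals cover counting error only, and take each count as independent, which PCR copies and mates of a pair are not. All 6 genes chosen as usually detected in HEK293T had counts in every library, summing to 8357 and 8023 in EPN24-Cas13d and to 590.5 and 561 in EPN24. VIM alone gave 7503 and 7233 of the counts in EPN24-Cas13d, against 280.5 and 331.7 in EPN24. LIN28B ran the other way, with 16 and 8 counts in EPN24-Cas13d, against 77 and 68 counts in EPN24. For PAX2 the raw numbers were close, 53 and 43 with Cas13d and 48 and 36 without it. Set against the larger totals of the EPN24-Cas13d libraries, PAX2 took a smaller share in both of them than in either EPN24 library. Of 5 genes of other cell types, HBA1 was at 0 in every library, and the 5 summed to 15 and 18 counts in EPN24-Cas13d and to 64 and 61 in EPN24. Their part in the results was not tested.

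The members lie on 8 chromosomes of GRCh38. The SLC7 genes are SLC7A5 on chromosome 16 from 87830023 to 87869507 (minus strand), SLC7A6 on chromosome 16 from 68264516 to 68301823 (plus), SLC7A1 on chromosome 13 from 29509414 to 29595688 (minus) and SLC7A11 on chromosome 4 from 138164097 to 138242349 (minus). SLC3A2 lies on chromosome 11 from 62856004 to 62888880 (plus), SLC1A5 on chromosome 19 from 46774883 to 46788594 (minus) and SLC1A4 on chromosome 2 from 64988477 to 65023865 (plus). SLC6A9 lies on chromosome 1 from 43991500 to 44031467 (minus), and both SLC38 genes lie on chromosome 12.

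Stretches from the middle of 5 coding sequences are printed to show codons that end in G or C beside codons that end in A or U, a property that ranges widely among the members. A stretch is not the composition of the whole coding sequence, which is given after the lines. Each line gives the central 30 codons of the longest coding transcript in GENCODE 29 (GRCh38), 5′ to 3′, with capitals where the last base of a codon is G or C.
SLC7A5: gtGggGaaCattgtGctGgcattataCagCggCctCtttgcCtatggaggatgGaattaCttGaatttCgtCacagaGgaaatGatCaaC
SLC1A5: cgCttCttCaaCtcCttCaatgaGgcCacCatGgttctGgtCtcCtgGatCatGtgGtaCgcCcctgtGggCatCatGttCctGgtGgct
SLC38A1: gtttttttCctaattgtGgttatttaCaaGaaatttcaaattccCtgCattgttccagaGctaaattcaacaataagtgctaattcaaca
SLC38A2: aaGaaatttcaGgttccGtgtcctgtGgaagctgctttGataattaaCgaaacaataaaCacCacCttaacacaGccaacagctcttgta
SLC7A11: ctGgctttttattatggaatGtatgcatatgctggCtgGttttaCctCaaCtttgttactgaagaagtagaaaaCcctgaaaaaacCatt
Of these 30 codons 26 ended in G or C in SLC1A5 and 19 in SLC7A5. In SLC38A2 10 did, in SLC7A11 9 and in SLC38A1 7. Over whole coding sequences the share was 90.3% in SLC7A5, far above that of its printed stretch, and 79.1% in SLC1A5. It was 47.7% in SLC7A11, 47.2% in SLC38A1 and 41.7% in SLC38A2.

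Of the 10 messages 8 were higher in EPN24-Cas13d supernatant and 2, SLC38A2 and SLC7A11, were lower. Among all 20476 tested genes 80.9% were called, 32.6% higher and 48.2% lower, by edgeR's quasi-likelihood test with an adjusted p under 0.05. The median log2 fold change was 3.05 over the 10 members and -0.96 over all tested genes. The members were chosen with earlier results of these data known, so this contrast and the summed share describe the chosen list only. Together the 10 messages took 0.418% and 0.417% of gene counts in EPN24-Cas13d, against 0.0377% and 0.0334% in EPN24, an 11.8-fold higher mean share. The exact permutation test over libraries, two-sided, gave p = 0.33, which is the smallest p that 2 against 2 libraries allow. With the abundant RN7SL, RPPH1, RMRP and RN7SK RNAs left out of the total, the shares were 0.425% and 0.425% in EPN24-Cas13d and 0.0587% and 0.0550% in EPN24, a 7.48-fold difference. For each of the 10 messages the CPM values of the 2 groups did not overlap. The share of all tested genes without overlap was not counted, so this is not read as a trait of the members.

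**Figure D1:**
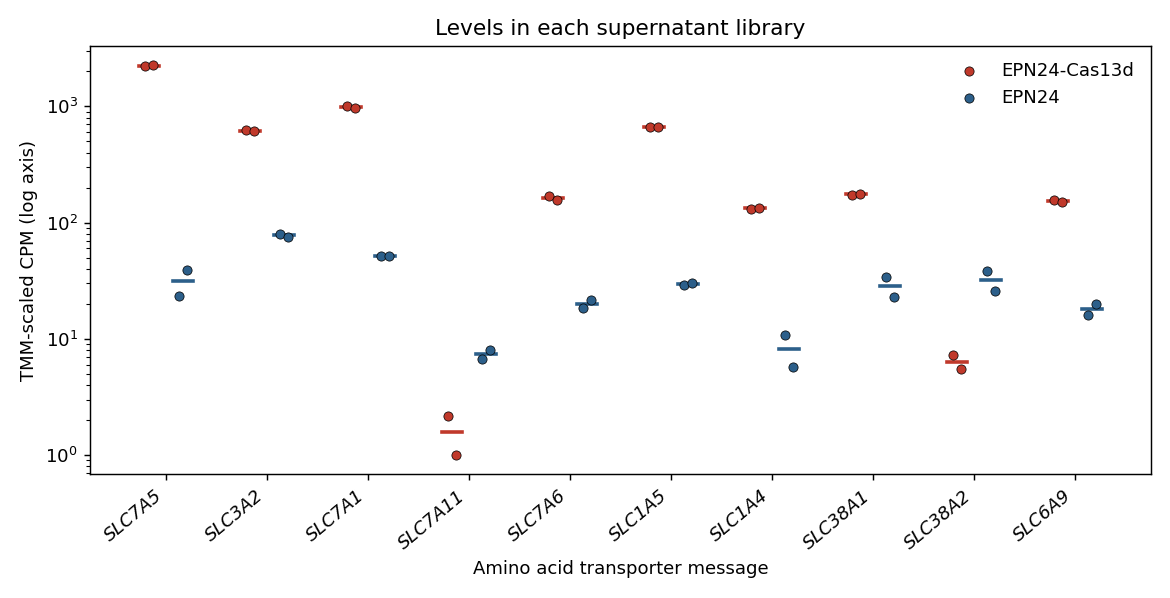
TMM-scaled CPM on a log axis for each of the 10 transporter messages, with 1 point per library and a bar at the mean of the 2 libraries of a group. EPN24-Cas13d points lie above the EPN24 points for 8 messages and below them for SLC7A11 and SLC38A2.

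SLC7A5, the light chain that exchanges large neutral amino acids such as leucine, was the most abundant member with Cas13d and had the largest change. It measured 2211 and 2245 CPM in EPN24-Cas13d libraries, from 9199 and 8920 counts. In EPN24 libraries it measured 23.2 and 39.3 CPM, from 51.5 and 83 counts. The EPN24-Cas13d libraries lay close together, while the second EPN24 library was well above the first, and the groups were far from overlapping. The log2 fold change was 6.16 with an approximate SE of 0.17, rank 43 of 20476 tested genes (edgeR's quasi-likelihood test, adjusted p = 1.27e-12).

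SLC3A2, the heavy chain that SLC7A5 needs at the membrane, rose far less. Its level was 620.2 and 609.8 CPM in EPN24-Cas13d and 79.4 and 75.7 CPM in EPN24, a log2 fold change of 2.99 ± 0.12 (approximate SE, adjusted p = 2.04e-11 by edgeR). It had the highest level per kilobase of exon of any member in EPN24 and ranked 4 among the members in EPN24-Cas13d. Exon length here counts all exons of a gene, 6392 bp for SLC3A2, whose longest coding transcript has 2222 bases. For SLC7A5 these lengths were 4764 and 4537, so the rank of SLC3A2 and its ratios depend on the length used. Per kilobase, SLC7A5 stood to SLC3A2 as 4.78 and 4.94 to 1 in the EPN24-Cas13d libraries, against 0.395 and 0.698 to 1 in the EPN24 libraries. The partners thus changed order: the light chain message was the more abundant in both EPN24-Cas13d libraries and the heavy chain message in both EPN24 libraries. On the log2 scale the ratio differed by 3.21 between the groups, and being taken within a library it does not depend on how libraries are scaled.

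SLC7A6, a light chain that exchanges cationic for neutral amino acids, also rose. It measured 168 and 155 CPM in EPN24-Cas13d and 18.3 and 21.8 CPM in EPN24, a log2 fold change of 3.01 ± 0.19 (approximate SE, adjusted p = 2.04e-09 by edgeR). Per kilobase its ratio to SLC7A5 was 0.0476 and 0.0434 in EPN24-Cas13d and 0.496 and 0.350 in EPN24. SLC7A6 shares 3372 bp of exon with SLC7A6OS on the other strand, whose counts were 480 and 380 in EPN24-Cas13d, against 26 and 37 in EPN24. Whether counting used strand is not given in the sources used, so the reads of these genes may not be fully told apart.

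SLC7A11, the light chain that takes up cystine in exchange for glutamate, stood at the bottom of the members in both groups. It had 9 and 4 counts in EPN24-Cas13d libraries and 15 and 17 in EPN24 libraries, or 2.16 and 1.01 CPM, against 6.69 and 8.05 CPM. The log2 fold change was -2.18 ± 0.70 (approximate SE, adjusted p = 0.0109 by edgeR). The summed counts of 13 against 32 give a log2 ratio of -2.20, with a 95% exact binomial interval from -3.25 to -1.23, or from -3.96 to -0.89 if each pair of mates is counted once. The call was lost without EPN24-Cas13d replicate 2 (adjusted p = 0.0761, edgeR) and without EPN24 replicate 2 (adjusted p = 0.0688, edgeR). In the EPN24 libraries its density was 1.56 and 1.76 counts per kilobase, 0.844 and 1.22 times the density over 361 olfactory receptor genes, which serve smell. Its EPN24 level therefore did not stand clear of the counts found on genes that kidney cells are not known to use. In the EPN24-Cas13d libraries it lay at 5.21 and 2.94 times the lower density there, so set against that density the order of the groups was the opposite of the TMM call.

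**Figure D2:**
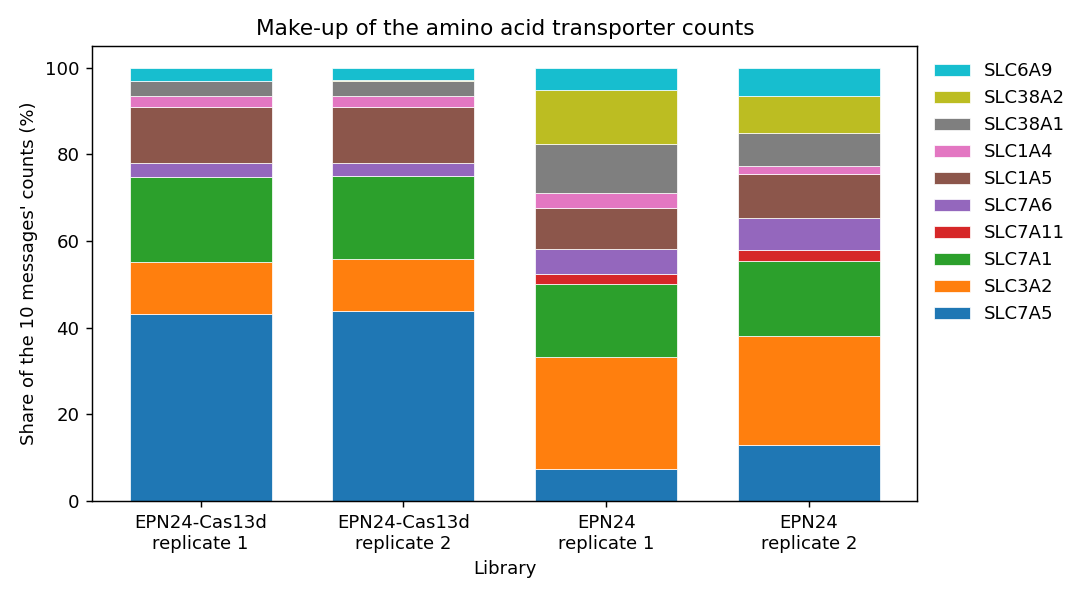
Share of the counts of the 10 messages taken by each member in each library, as stacked bars that sum to 100%. SLC7A5 takes 43.1% and 43.9% in EPN24-Cas13d and 7.47% and 13.1% in EPN24, while SLC38A2 takes 0.141% and 0.108% in EPN24-Cas13d and 12.5% and 8.49% in EPN24.

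SLC7A1, the main carrier of cationic amino acids such as arginine, works without the SLC3A2 heavy chain. It measured 1001 and 973 CPM in EPN24-Cas13d and 51.7 and 51.6 CPM in EPN24, with a log2 fold change of 4.25 ± 0.12 (approximate SE, adjusted p = 1.82e-12 by edgeR). Within the SLC7 family its change lay between those of SLC7A5 and SLC7A6. It was second to SLC7A5 among the members in CPM in EPN24-Cas13d, and ranked 3 per kilobase in both groups.

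SLC1A5 and SLC1A4 are related exchangers of small neutral amino acids, and SLC1A5 is a main entry route of glutamine. SLC1A5 measured 659 and 661 CPM in EPN24-Cas13d and 28.99 and 30.3 CPM in EPN24, a log2 fold change of 4.48 ± 0.14 (approximate SE, adjusted p = 2.40e-12 by edgeR). SLC1A4 measured 129.8 and 134 CPM in EPN24-Cas13d and 10.7 and 5.68 CPM in EPN24, a log2 fold change of 3.99 ± 0.25 (approximate SE, adjusted p = 2.51e-09 by edgeR). Both rose, and the ratio of SLC1A4 to SLC1A5 per kilobase was 0.0947 and 0.0976 in EPN24-Cas13d, within the 0.180 and 0.0930 of the EPN24 libraries. The exact permutation p for that ratio was 1.0, two-sided, and its mean log2 difference of -0.43 turned to 0.047 without EPN24 replicate 1. SLC1A4 lay at 1.88 and 1.20 times the olfactory receptor density in the EPN24 libraries, so 36 counts over both libraries set its fold change. SLC1A5 shares 780 bp of exon with the antisense lncRNA ENSG00000275719, whose counts were 575.5 and 612.5 in EPN24-Cas13d, against 18 and 19 in EPN24.

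SLC38A1 and SLC38A2 are sodium-coupled carriers of glutamine and other neutral amino acids, and SLC38A2 is known to be induced when amino acids are short. The genes lie 88170 bp apart on the minus strand of chromosome 12, SLC38A1 from 46183063 to 46270017 and SLC38A2 from 46358188 to 46372773. SLC38A1 measured 173 and 176 CPM in EPN24-Cas13d and 34.3 and 22.7 CPM in EPN24, a log2 fold change of 2.60 ± 0.19 (approximate SE, adjusted p = 1.37e-08 by edgeR). SLC38A2 went the other way, with 7.21 and 5.54 CPM in EPN24-Cas13d and 38.4 and 25.6 CPM in EPN24, a log2 fold change of -2.32 ± 0.34 (approximate SE, adjusted p = 3.62e-05 by edgeR). Its 52 counts in EPN24-Cas13d against 140 in EPN24 give a log2 ratio of -2.33, with a 95% exact binomial interval from -2.82 to -1.86, or from -3.04 to -1.66 if each pair of mates is counted once.

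Under TMM scaling the neighbours thus moved in opposite directions. With ERCC scaling both values were positive, 5.96 for SLC38A1 and 1.01 for SLC38A2 on the log2 scale. SLC38A1 stood to SLC38A2, per kilobase, as 15.3 and 20.2 to 1 in the EPN24-Cas13d libraries. In the EPN24 libraries the ratio was 0.582 and 0.578 to 1, so SLC38A2 was the more abundant there. The log2 ratio differed by 4.92 between the groups. Unlike SLC7A11, SLC38A2 stood clear of the olfactory receptor density in EPN24, at 7.17 and 5.76 times that density, and in EPN24-Cas13d at 25.7 and 23.9 times the lower density there. Set against that density, the order of the groups for SLC38A2 was the opposite of the TMM call, as for SLC7A11.

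SLC6A9, a glycine transporter known mainly from the nervous system, was also among the members that rose. It measured 155 and 149 CPM in EPN24-Cas13d and 16.1 and 19.9 CPM in EPN24, a log2 fold change of 3.08 ± 0.19 (approximate SE, adjusted p = 2.22e-09 by edgeR). It shares 413 bp of exon with CCDC24 on the other strand, whose counts were 28 and 18 in EPN24-Cas13d, against 26 and 8 in EPN24. The raw counts of CCDC24 overlapped between the groups, and those of SLC6A9 did not.

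Pairs of other genes were not counted in this way, and the pairs that hold SLC7A5 share its change and are not separate results. Over the 5 pairs compared within libraries, 4 had ratios that did not overlap between groups: SLC7A5 over SLC3A2, SLC7A6 over SLC7A5, SLC7A11 over SLC7A5 and SLC38A1 over SLC38A2. Each of the 4 had an exact permutation p of 0.33, two-sided, the smallest possible, and 0.417 after Benjamini-Hochberg adjustment over the 5 pairs. For SLC7A11 over SLC7A5 the size of the difference has no firm value, since SLC7A11 did not stand clear of the olfactory receptor density in EPN24.

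The order of the levels per kilobase of exon differed between the groups. Places in it depend on the length used, as for SLC3A2 (6392 bp of exon, against 2222 bases in its longest coding transcript). In EPN24-Cas13d it ran from SLC7A5 (467.7 ± 5.01 CPM per kilobase, SD, n = 2) through SLC1A5 (198 ± 0.591) and SLC7A1 (128 ± 2.59) to SLC3A2 (96.2 ± 1.14). SLC6A9 (28.96 ± 0.815), SLC7A6 (21.3 ± 1.17), SLC1A4 (19.03 ± 0.468) and SLC38A1 (17.4 ± 0.218) formed a lower group in CPM per kilobase, and SLC38A2 (0.979 ± 0.182) and SLC7A11 (0.164 ± 0.0848) came last. No neighbours in that order had libraries that overlapped. In EPN24 the order ran from SLC3A2 (12.1 ± 0.403 CPM per kilobase, SD, n = 2) and SLC1A5 (8.90 ± 0.277) to SLC7A1 (6.72 ± 0.0126), SLC7A5 (6.56 ± 2.39) and SLC38A2 (4.91 ± 1.39). SLC7A1 and SLC7A5 did not differ there beyond their spread, nor did SLC7A5 and SLC38A2. SLC6A9 (3.42 ± 0.515), SLC38A1 (2.85 ± 0.820), SLC7A6 (2.64 ± 0.325), SLC1A4 (1.18 ± 0.512) and SLC7A11 (0.764 ± 0.0995) followed in EPN24, where the libraries of SLC38A1 overlapped those of SLC6A9 and SLC7A6, and those of SLC1A4 overlapped those of SLC7A11. The EPN24 levels spanned a far narrower range than the EPN24-Cas13d levels.

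The ERCC share of counts was 1.73% and 1.66% in EPN24-Cas13d, against 19.6% and 20.9% in EPN24. Scaled to it, which compares RNA per volume of medium, 9 of the 10 messages were called higher and none lower. Under that scaling 58.4% of tested genes were higher and 2.33% lower, and the median over all genes tested moved up by 3.34 on the log2 scale. Per 1000 ERCC counts, SLC7A5 had 103 and 109 counts in EPN24-Cas13d, against 0.117 and 0.165 in EPN24, a log2 fold change of 9.54 ± 0.20 (approximate SE). SLC38A2 had 0.335 and 0.268 counts per 1000 ERCC counts in EPN24-Cas13d, against 0.193 and 0.107 in EPN24, and its sign turned to 1.01 ± 0.41 (adjusted p = 0.0499, edgeR). That call was lost without EPN24-Cas13d replicate 1, EPN24-Cas13d replicate 2 or EPN24 replicate 2 (adjusted p = 0.252, 0.0775 and 0.119, edgeR). SLC7A11 had 0.100 and 0.0488 counts per 1000 ERCC counts in EPN24-Cas13d, against 0.0337 and 0.0338 in EPN24, and was not called (log2 fold change 1.15 ± 0.74, adjusted p = 0.204, edgeR). The other 8 lay between 5.96 (SLC38A1) and 9.54 (SLC7A5) on the log2 scale. SLC38A2 and SLC7A11 were thus called lower relative to other messages, and neither was called lower per volume of medium.

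**Figure D3:**
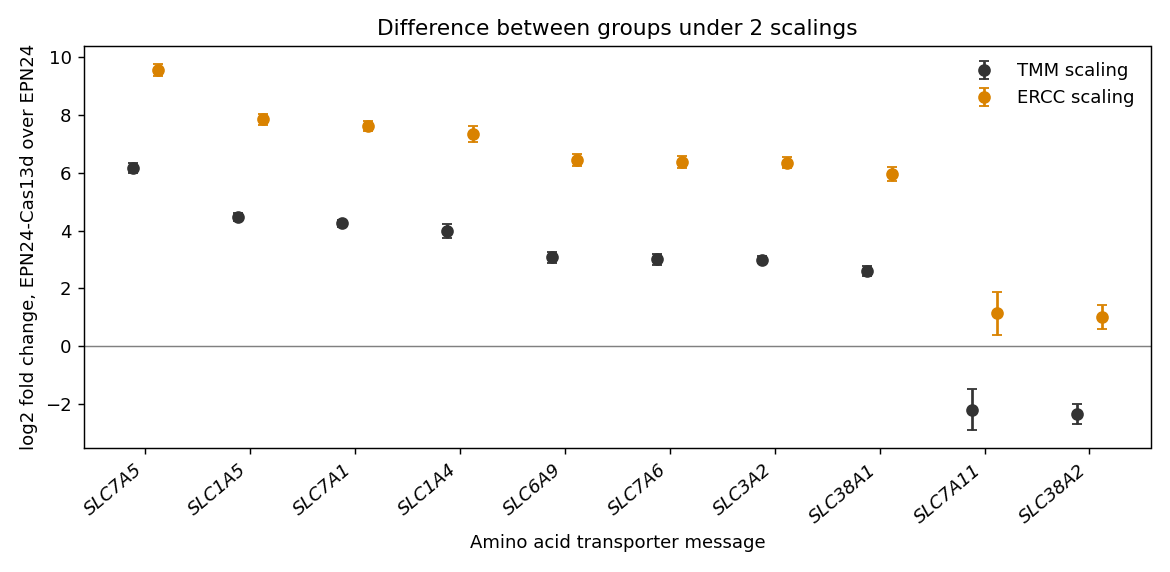
Log2 fold change of EPN24-Cas13d over EPN24 with its approximate SE for each message, under TMM scaling (dark) and ERCC scaling (orange), ordered by the TMM value. ERCC scaling lifts every message, and SLC7A11 and SLC38A2 move from -2.18 and -2.32 to 1.15 and 1.01.

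The authors' deposited table gave like values to ERCC scaling. In the authors' deposited table SLC7A5 had a log2 fold change of 9.52 with an SE of 0.34, and SLC38A1 one of 5.90 with an SE of 0.35. In the authors' deposited table SLC38A2 (0.96, adjusted p = 0.296 by DESeq2) and SLC7A11 (1.12, adjusted p = 0.629 by DESeq2) did not pass. How that table was scaled is not stated in the labels.

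Members rich in G and C tended to have the larger changes. The GC content of the longest coding transcript was 61.1% for SLC7A5, 61.3% for SLC1A5, 59.6% for SLC6A9 and 57.4% for SLC3A2. It was 52.7% for SLC7A1, 52.6% for SLC1A4 and 47.0% for SLC7A6, and 41.3% for SLC38A1, 38.1% for SLC38A2 and 35.4% for SLC7A11. At the last base of codons the range was wider, from 90.3% in SLC7A5 to 41.7% in SLC38A2. Across the 10 genes the log2 fold change had a Spearman rho of 0.84 with transcript GC content, of 0.89 with GC content at the last base of codons, of -0.81 with U content and of -0.43 with transcript length. These are descriptions over genes that share the same 4 libraries and are not independent. The longest run of U was 16 bases in SLC38A2 and 11 in SLC7A11, against 5 in SLC6A9 and 8 in SLC7A5, with 10 in SLC38A1 and SLC7A6.

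The same direction held across the table, with a rho of 0.47 over 19924 tested genes and of 0.42 over 333 other SLC-named genes. Among tested genes whose longest transcript had 35 to 40% GC, where SLC7A11 and SLC38A2 fall, 2.74% were called higher and the median log2 fold change was -2.97. In the bin from 60 to 65%, which holds SLC7A5 and SLC1A5, 61.5% were called higher and the median was 1.85. All 8 members that rose lay above the upper quartile of their bin, which was partly fixed by taking members that rose. That quartile was -0.35 on the log2 scale from 40 to 45% (SLC38A1) and 1.05 from 45 to 50% (SLC7A6, and SLC1A4 by a longest transcript of 46.5% GC). It was 2.12 from 50 to 55% (SLC7A1), 2.69 from 55 to 60% (SLC3A2 and SLC6A9) and 3.21 from 60 to 65%. SLC7A11 and SLC38A2 lay within the quartiles of theirs, -4.13 and -1.80. The share of all genes called higher that lay above their bin's upper quartile was not counted. With the trend on GC content removed from all genes, SLC38A1 measured 4.12 and SLC1A4 4.49 on the log2 scale, and SLC7A5 4.15. SLC3A2 moved to 1.58, SLC1A5 to 2.44 and SLC6A9 to 1.31, while SLC38A2 (-0.16) and SLC7A11 (0.45) were no longer called (adjusted p = 0.695 and 0.582, edgeR). The part of base composition in these differences was not tested otherwise.

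**Figure D4:**
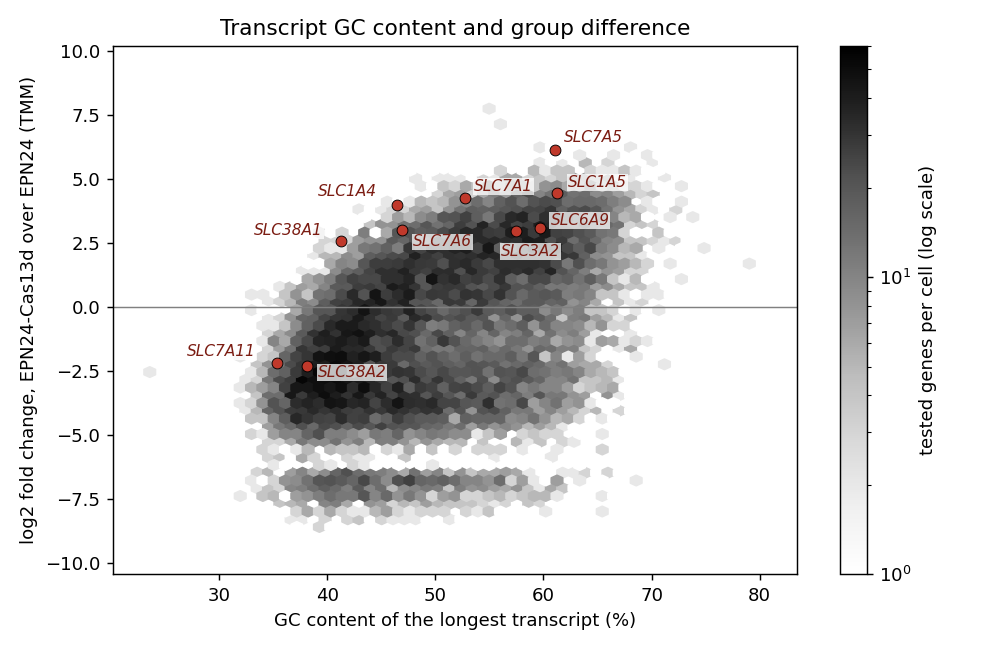
GC content of the longest transcript of a gene in percent against log2 fold change of EPN24-Cas13d over EPN24 with TMM scaling, with all tested genes as grey cells and the 10 messages as red points. SLC7A11 and SLC38A2 lie at the AU-rich end with values of -2.18 and -2.32. The other 8 messages, which are those called higher, lie above the upper quartile of genes in their own bin of GC content. Taking messages called higher partly fixed that position, and the share of all genes called higher that lie there was not counted.

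Regulatory DNA of the members was searched for the core of the C/EBP-ATF element, TGATGNAA on either strand, in RefSeq promoters of GRCh38.p14 that span 250 bases before to 50 after a gene's start. RefSeq promoters were matched by symbol for 9 of the 10 members, all but SLC7A11, with 15 start sites. The motif stood in 5 of these 15 windows, 1 each for SLC3A2, SLC7A1, SLC1A5, SLC1A4 and SLC38A1, and in 3.62% of all 35116 windows. The stricter TGATGCAA, a subset of it, stood in windows of SLC1A5 and SLC1A4 and in 0.866% of all. Those stricter matches are shown, and a link between the motif and the rise of these genes was not tested. Capitals mark the motif, which reads as its reverse complement in SLC1A4.
SLC1A5, chr19:46784893-46784922, minus strand: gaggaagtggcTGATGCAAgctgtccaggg
SLC1A4, chr2:64989381-64989410, plus strand: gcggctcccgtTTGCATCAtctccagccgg
Both stand at start sites downstream of the outermost start of the gene. A match describes these letters and is not a bound site. The members with windows but no match were SLC7A5, SLC7A6, SLC38A2 and SLC6A9, and DNA outside the windows was not searched.

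Other amino acid transporters were counted in the same way. Of 30 further plasma membrane and lysosomal amino acid carriers 27 were tested, and 7 were higher, 12 lower and 8 not called, with a median log2 fold change of -1.05 near the -0.96 of all tested genes. Their shares of 25.9% higher and 44.4% lower lay near the 32.6% and 48.2% of all tested genes. SLC43A1, a carrier of large neutral amino acids, measured 53.1 ± 1.73 CPM in EPN24-Cas13d and 5.88 ± 4.30 CPM in EPN24 (SD, n = 2 each), a log2 fold change of 3.15. SLC36A1, a proton-coupled carrier, measured 83.7 ± 0.460 CPM in EPN24-Cas13d and 11.9 ± 2.75 CPM in EPN24 (2.81). SLC38A10 (157 ± 1.84 CPM in EPN24-Cas13d and 27.2 ± 6.34 CPM in EPN24, 2.53) and SLC43A2 (96.7 ± 1.55 CPM in EPN24-Cas13d and 20.2 ± 1.75 CPM in EPN24, 2.26) also rose. The 4 are those with a mean of at least 20 CPM over the 4 libraries that the naming rule takes, and SLC43A1 and SLC36A1 reach that mean only through EPN24-Cas13d. None of the 12 lower genes reached it. SLC1A3, a glutamate transporter named here after its values were seen, was the most abundant of them, with 7.36 ± 1.15 CPM in EPN24-Cas13d and 27.5 ± 1.44 CPM in EPN24 (-1.90). With ERCC scaling 17 of the 27 (63.0%) were higher and 0 lower, near the 58.4% and 2.33% of all tested genes. Of 333 other SLC-named genes tested, which include these, 116 were higher and 154 lower (median -0.85), or 190 and 7 with ERCC scaling.

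Of 31 genes that pass the amino acid signal to mTORC1, 16 were higher, 9 lower and 6 not called (median log2 fold change 0.72). That is 51.6% higher and 29.03% lower, against 32.6% and 48.2% of all tested genes. SESN2, a leucine sensor that is itself an ATF4 target, measured 3708 ± 11.5 CPM in EPN24-Cas13d and 47.5 ± 2.87 CPM in EPN24 (SD, n = 2 each), a log2 fold change of 6.28. WDR24, a subunit of the GATOR complex that activates mTORC1, measured 222 ± 5.63 CPM in EPN24-Cas13d and 6.59 ± 3.29 CPM in EPN24 (5.05). It reached the mean of 20 CPM set by the naming rule only through EPN24-Cas13d. The kinase MTOR (609.6 ± 15.6 CPM in EPN24-Cas13d and 121 ± 4.97 CPM in EPN24, 2.33) and its negative regulator TSC2 (562 ± 14.1 CPM in EPN24-Cas13d and 101 ± 14.3 CPM in EPN24, 2.48) both rose. RHEB, the small GTPase that switches the kinase on, fell to 13.8 ± 1.14 CPM in EPN24-Cas13d, against 57.5 ± 5.67 CPM in EPN24 (-2.06, turning to 1.31 with ERCC scaling). With ERCC scaling 26 of the 31 (83.9%) were higher and 0 lower, against 58.4% and 2.33% of all tested genes.

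Genes downstream of cystine uptake by SLC7A11 formed a short list. Of 12 messages for glutathione synthesis and its control 5 were higher, 2 lower and 5 not called (median log2 fold change 0.21), or 11 higher and 0 lower with ERCC scaling. The 41.7% higher and 16.7% lower stand against 32.6% and 48.2% of all tested genes, over few messages. With ERCC scaling the share higher was 91.7%, against 58.4% higher and 2.33% lower of all tested genes. KEAP1, the adaptor that marks NRF2 for breakdown, measured 434 ± 16.7 CPM in EPN24-Cas13d and 27.3 ± 0.827 CPM in EPN24 (SD, n = 2 each), a log2 fold change of 3.99. CBS, which leads homocysteine towards cysteine, measured 170.5 ± 3.68 CPM in EPN24-Cas13d and 7.30 ± 2.29 CPM in EPN24 (4.53). Like WDR24, CBS reached a mean of 20 CPM only through EPN24-Cas13d. GPX4, a selenoenzyme that reduces lipid peroxides, measured 75.03 ± 2.09 CPM in EPN24-Cas13d and 72.2 ± 6.29 CPM in EPN24 and was not called (0.056, adjusted p = 0.765 by edgeR). With ERCC scaling GPX4 measured 3.42 on the log2 scale and was called higher. All values called in these lists had an adjusted p under the threshold of 0.05 by edgeR's quasi-likelihood test.

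**Figure D5:**
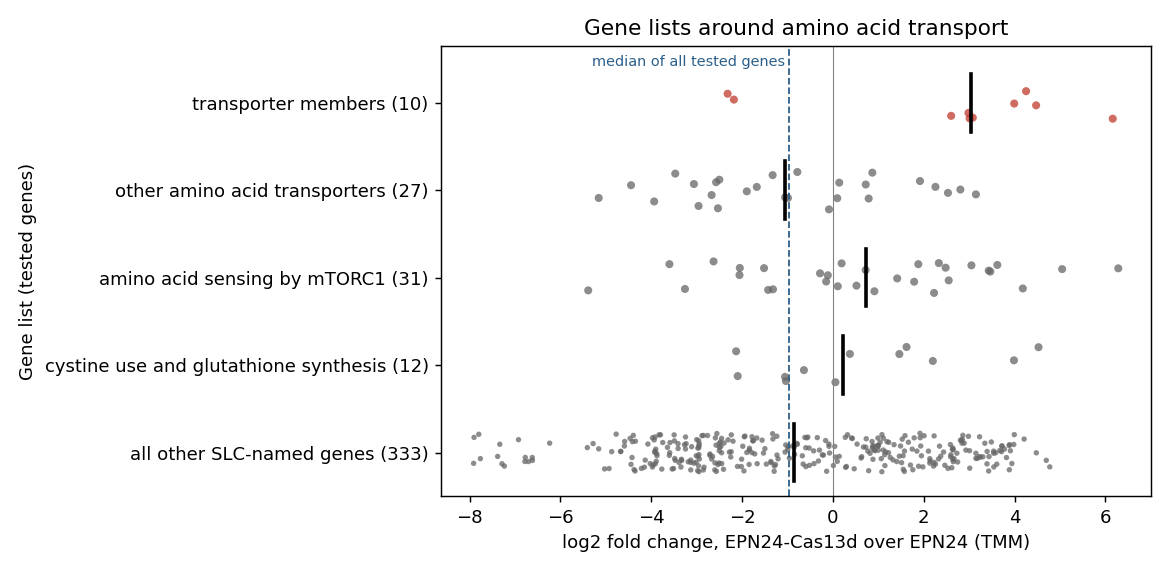
Log2 fold change of EPN24-Cas13d over EPN24 with TMM scaling for each tested gene of 5 lists, with a black bar at the list's median and a dashed line at the median of all tested genes, -0.96. The transporter members have a median of 3.05, the other amino acid transporters one of -1.05.

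The genes whose profile was most like that of SLC7A5, by Euclidean distance of log2 CPM over the 4 libraries, were CBX6 (distance 0.62), AEN (1.19) and SCAF1 (1.28). CBX6 measured 2914 and 3015 CPM in EPN24-Cas13d and 25.9 and 43.6 CPM in EPN24, with the same higher second EPN24 library. Among the genes most like SLC38A2 were WDR36 (0.32) and MAPRE2 (0.40). WDR36 measured 8.17 and 4.53 CPM in EPN24-Cas13d and 37.0 and 24.1 CPM in EPN24.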

How the data were processed

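RNA of culture supernatant was sequenced from 4 libraries, grouped by their titles. The submitters' processing notes name Trim Galore 0.6.7, STAR 2.7.10a, featureCounts 2.0.1 and DESeq2 1.36.0, with hg38. No source used states the strand or multi-mapping settings. The values the authors deposited are expected counts (partly fractional, not normalized) with an exon length per gene. Whole values were mostly even, a pattern that counting each mate of a pair gives. A second deposited table holds the authors' mean normalized count (signal), log2 fold change with its SE, Wald statistic (score) and p-values. Of 61640 rows, 5 that are pieces of a single broken row were left out.

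Counts were rounded, filtered by filterByExpr (20476 of 61543 genes), scaled by TMM (ERCC rows excluded) and tested by edgeR 4.0.16 (R 4.3.3), using its robust quasi-likelihood test and adjusting p by Benjamini-Hochberg over all tested genes. Approximate SEs are |log2 fold change| over the root of the F statistic. Single values were tested by exact permutation. The fit was tested on simulated data. Replicates differed by more than sampling noise, with chi-square over its degrees of freedom at 2.39 in EPN24-Cas13d and 3.39 in EPN24. With counts halved, as if each pair of mates were counted once, it was 1.24 in EPN24-Cas13d and 1.78 in EPN24. The members and lists were chosen with earlier results of these data known. From the lists, the 3 most abundant genes and up to 2 with the largest change in each direction, at a mean of 20 CPM or more, are named, with the 3 genes most like SLC7A5 and SLC38A2, of which 1 is not reported here. Alternatives were DESeq2 1.42.0 and its size factors, limma 3.58.1, total counts, ERCC totals, other filters, a replicate block, halved counts, a GC trend removed, background subtracted at the olfactory receptor density, and each library left out.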

Additional observations from a re-analysis of the deposited data

How the results depend on the processing

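The 8 members called higher were called higher in all 15 alternatives to the TMM fit, but their size moved. With the stricter filter all 8 log2 fold changes fell by 0.86, as the median of all tested genes moved up by 0.98, and background subtraction moved them by -0.87 to 0.50 (SLC1A4 was the 1 that moved up). The number called lower was 2, but 0 with ERCC totals or without the GC trend, 1 after background subtraction or stricter filtering (SLC7A11 was not tested in either), and 1 to 2 with a library left out. SLC7A11 turned to 1.15 with ERCC totals and 0.45 with the GC trend removed, and SLC38A2 to 1.01 with ERCC totals. The cause was not tested. Of all tested genes, 6685 were higher and 9871 lower, against 11960 and 477 with ERCC totals, 4889 lower with the stricter filter and 5722 lower with background subtracted, settings that test fewer genes. The other amino acid transporters had 17 higher and 0 lower with ERCC totals and 4 higher with background subtracted. The mTORC1 list had 26 higher and 0 lower with ERCC totals. The glutathione list had 11 higher and 0 lower with ERCC totals, and lower counts of 6 with total counts, 6 with the stricter filter, 5 with halved counts, 4 with the GC trend removed and 4 with background subtracted. Other SLC-named genes had 190 higher and 7 lower with ERCC totals, 62 lower with the stricter filter and 77 lower with background subtracted. With a library left out, 101 to 128 were lower.

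The difference in log2 ratio of SLC1A4 over SLC1A5 was 1.15 with background subtracted, and -0.90 to 0.047 with a library left out. That of SLC7A11 over SLC7A5 was -8.43, or -5.34 with background subtracted. The latter leans on the pseudocount, since SLC7A11 lay at 0.844 times that background in EPN24 replicate 1 and 1.22 times in EPN24 replicate 2. The difference in the members' share of gene counts was 0.382 percentage points, 0.368 without the abundant small RNAs and 0.385 with background subtracted. Same-numbered libraries did not deviate together (r = -0.0041 over 20476 genes). The replicate block called 15041 genes in place of 16556, 6545 higher and 8496 lower, and the same 8 and 2 members. Under 20 counts per library, as for SLC7A11, a change is set by few reads. The ERCC fits without a library were added after seeing the data.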

Other observations

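The SLC7A5 pseudogenes SLC7A5P2 and SLC7A5P1 had 86 and 108 counts and 100.33 and 86.83 counts in EPN24-Cas13d, against 4 and 15 and 6.83 and 3.33 in EPN24. The lncRNA ENSG00000260466, which shares 271 bp of exon with SLC7A5 on the other strand, measured 191.5 and 196 counts in EPN24-Cas13d, against 0.5 and 2 in EPN24. SLC7A11-AS1, which shares 865 bp with SLC7A11, measured 3 and 0 counts in EPN24-Cas13d, against 6 and 2 in EPN24. How many of these reads belong to the partner was not tested.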
